A study of Homo sapiens with 9 samples.

Results

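B3 is a line of LN229 cells in which the transcription factor gene ARNT2 was targeted by CRISPR, and its 3 RNA libraries were compared with 3 libraries of wild-type LN229 cells. These 6 libraries were picked by their labels from the 9 of the series; the other 3 come from a second knockout line, C4. LN229 is an established human glioblastoma cell line. All cells were of the same line and were grown in DMEM with 5% serum at 37 °C and 5% CO2, with no other treatment in the labels. The wild-type group carries the genotype label WT and the B3 group the label ARNT2 KO. The labels do not say whether B3 grew from 1 cell, and with a single line the loss of ARNT2 cannot be told apart from any other difference between B3 and the wild-type cells. Nor do they give each library a culture of its own. The p-values therefore cover the spread within groups over the 9 libraries of the fit, C4 included, and that spread may be technical. The study set out to learn what ARNT2 does in the proliferation and differentiation of glioblastoma cells.

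ARNT2 belongs to the basic helix-loop-helix PAS (bHLH-PAS) family. Its members act as pairs: a sensor or tissue-restricted partner, such as a hypoxia inducible factor, the aryl hydrocarbon receptor, SIM or NPAS proteins, joins a common partner, which is ARNT or ARNT2. The pair binds short E-box-like DNA motifs and recruits co-activators. ARNT is found in most tissues, whereas ARNT2 is most abundant in the nervous system and kidney, and it is needed for the development of the hypothalamus.

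The deposited table gives 19356 genes as log2 expression values that the authors had put on a common scale. The 16457 genes whose mean antilog over the 9 libraries was at least 10 were tested, and the 2899 weaker genes were left out. A change is a log2 fold change, B3 minus wild type, given ± its standard error from limma with 3 libraries per group, and a gene is called when its Benjamini-Hochberg adjusted p is under 0.05. Read depth is unknown, because no counts were used here. The median log2 value of the tested genes was 11.41 to 11.42 in all 9 libraries. The median SD between replicates was 0.0073 at values under 2, 0.0305 at 4 to 6, 0.0473 at 6 to 8 and 0.0400 at 8 to 12. The deposited values of the weakest genes may thus be drawn toward each gene's mean, and their changes may be understated. The transform is not named, so this was not tested. Gene lists are given by the members tested, with the number in the table in brackets where the filter left some out. Each count of called members is to be read beside the shares of all tested genes, 23.2% called higher and 24.6% called lower.

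The targeted gene was lower in every B3 library. ARNT2 (chromosome 15, 80404350 to 80597937 on the plus strand of GRCh38) had log2 values of 13.55, 13.59 and 13.58 in wild type and 11.91, 11.90 and 11.86 in B3. The 2 groups did not overlap, and the libraries within each lay close together. The change was -1.69 ± 0.03, which leaves 31.1% of the wild-type RNA (limma adjusted p = 1.74e-21). Permuting the labels exactly (two-sided) gave p = 0.1, the smallest value that 3 against 3 libraries allow. A CRISPR edit need not remove the RNA, so the level of the transcript does not show whether protein was made. ACTB, a reference gene of most cells, was at 0.04 ± 0.04, adjusted p = 0.467, and was called under quantile normalization alone of the alternatives run (adjusted p = 0.0014).

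Small changes were common in B3 and large changes were mostly losses. At the adjusted threshold 7876 genes were called, which is 47.9% of those tested: 3822 were higher (23.2%) and 4054 lower (24.6%). The median size of a called change was 0.15 on the log2 scale. Rises made up 48.5% of the calls on the deposited scale and 64.2% once library totals were made equal, so the balance of small changes rests on the scaling. A change of at least 0.5 was reached by 36 genes upward (0.219% of those tested) and by 247 downward (1.5%). At 0.25 the counts were 464 and 1068, and at 1 they were 2 and 41. Just inside the threshold of 0.5, within 0.05 of it, lay 7 rises and 61 falls, and just outside it 24 and 60. Libraries of the 2 groups did not overlap for 53.8% of all tested genes, so that lack of overlap alone marks no gene as particular.

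**Figure D1:**
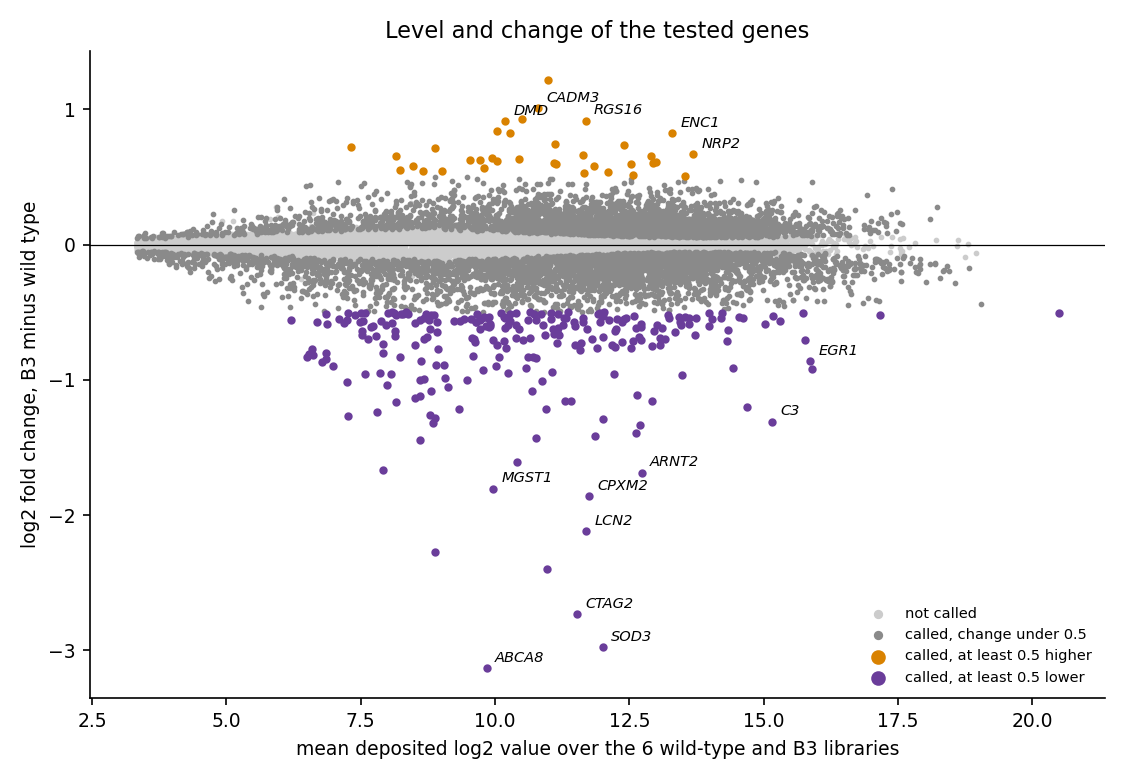
Each point is 1 of 16457 tested genes, placed by its mean log2 value over the 6 libraries and its log2 change in B3 against wild type. The 247 genes that fell by at least 0.5 (purple) reach far below -1, while of the 36 that rose by at least 0.5 (orange) 2 pass 1.

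The deepest losses were in an ATP-binding cassette lipid transporter, an extracellular antioxidant enzyme and antigens normally restricted to the testis. ABCA8 (chromosome 17, 68867292 to 68955392), a transporter of sterols and other lipids, had log2 values of 11.46, 11.40 and 11.37 in wild type and 8.38, 8.24 and 8.21 in B3. SOD3 (chromosome 4, 24789912 to 24800842), the secreted superoxide dismutase, had 13.54, 13.54 and 13.40 in wild type and 10.53, 10.53 and 10.50 in B3. CTAG2 (chromosome X, 154651972 to 154653579), a cancer-testis antigen, had 12.84, 12.95 and 12.89 in wild type and 10.21, 10.13 and 10.15 in B3. In all 3 genes every B3 library lay more than 2 log2 units under every wild-type library. ABCA8 was 8.78-fold lower, SOD3 7.87-fold and CTAG2 6.65-fold. MAGEA10, another cancer-testis antigen, had 12.17, 12.15 and 12.18 in wild type and 9.80, 9.77 and 9.73 in B3, and LCN2, which binds iron-carrying siderophores, 12.66, 12.94 and 12.68 in wild type and 10.57, 10.62 and 10.72 in B3. Of the latter pair, LCN2 had the wider spread in wild type, with 1 library at 12.94 above the other 2. CPXM2, a member of the metallocarboxypeptidase family, had 12.75, 12.65 and 12.64 in wild type and 10.88, 10.78 and 10.81 in B3.

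**Figure D2:**
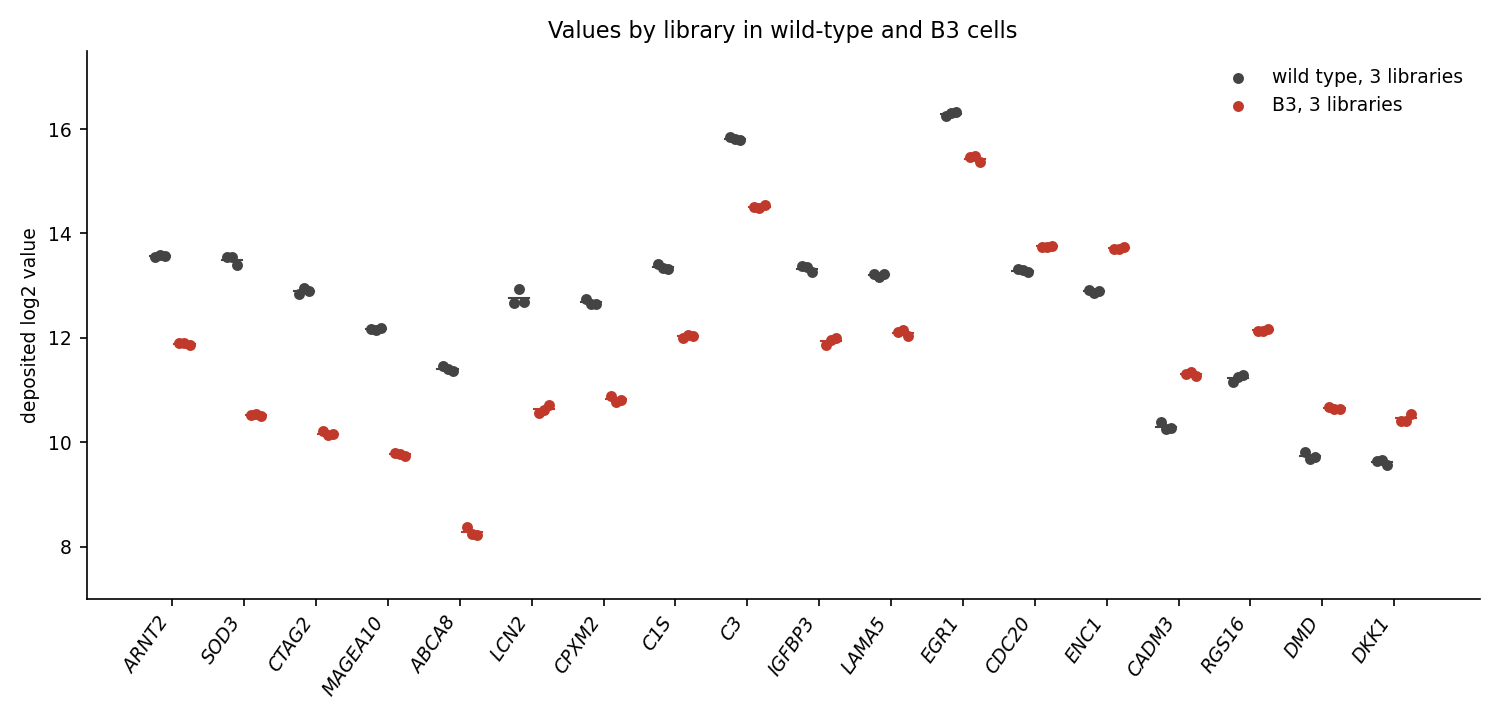
Deposited log2 values of 18 genes in the 3 wild-type libraries (grey) and the 3 B3 libraries (red); each point is a library and each line a group mean. In all 18 genes the groups are apart by more than the spread inside them. Most of the 18 were chosen among genes whose libraries do not overlap, which held for 53.8% of all tested genes. The 12 genes from ARNT2 to EGR1 are lower in B3 and the 6 from CDC20 to DKK1 are higher.

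The 20 largest falls held, besides these, genes of several kinds. MGST1, a membrane-bound glutathione transferase, fell by 1.80 ± 0.04 and PLBD1, a phospholipase B-like lysosomal protein, fell by 1.66 ± 0.06. A chromosome is named for only some genes, and the others may also lie in the lower stretches of the genome described further on. NRN1, which encodes neuritin, a promoter of neurite growth, had 11.17, 11.26 and 11.18 in wild type and 9.59, 9.62 and 9.58 in B3. HS6ST2, which adds 6-O sulfates to heparan sulfate, fell by 1.45 ± 0.06, and UBD, the inflammation-induced ubiquitin-like protein FAT10, fell by 1.43 ± 0.04. IGFBP3, the main carrier of insulin-like growth factors in serum, had 13.38, 13.35 and 13.26 in wild type and 11.86, 11.95 and 12.003 in B3, and no B3 library came within 1 log2 unit of wild type. NLRP1, an inflammasome sensor, fell by 1.32 ± 0.05, and AZGP1, a secreted lipid-mobilizing glycoprotein, fell by 1.29 ± 0.03. RPS6KA2, a ribosomal S6 kinase of the ERK pathway, fell by 1.28 ± 0.05. Losses of at least 1 on the log2 scale also included SELENBP1, a selenium-binding methanethiol oxidase, at -1.16, and GPM6A, a neuronal membrane glycoprotein, at -1.16; both were picked after their values were seen.

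The promoters of a few of these genes are shown because ARNT2 pairs bind DNA and because a sequence for them was in the table used. SOD3 has the largest fall of all genes with an entry and LCN2 the next among those without near-identical copies; GPM6A, which fell, and LYPD1, which rose, hold the E-box. Each line gives the 250 bases before the transcription start (RefSeq, build GRCh38.p14), 5′ to 3′ on the strand of the gene. The intervals are chr4:24795323-24795572 (plus), chr9:128149203-128149452 (plus), chr4:176002394-176002643 (minus) and chr2:132671527-132671776 (minus). Capitals mark CACGTG (the E-box), TACGTG (a form of the hypoxia response core) or GCGTG (a core bound with the aryl hydrocarbon receptor, among others). All were searched on both strands, and none of the 3 contains another.
SOD3: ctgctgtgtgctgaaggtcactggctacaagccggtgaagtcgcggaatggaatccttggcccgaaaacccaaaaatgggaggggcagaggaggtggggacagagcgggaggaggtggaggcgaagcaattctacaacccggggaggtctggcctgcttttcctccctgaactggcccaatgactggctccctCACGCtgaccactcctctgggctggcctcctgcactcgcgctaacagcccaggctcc
LCN2: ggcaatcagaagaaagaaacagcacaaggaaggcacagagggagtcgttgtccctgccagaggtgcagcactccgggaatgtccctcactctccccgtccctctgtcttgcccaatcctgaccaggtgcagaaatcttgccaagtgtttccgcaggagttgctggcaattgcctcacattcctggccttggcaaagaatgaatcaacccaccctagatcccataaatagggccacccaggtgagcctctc
GPM6A: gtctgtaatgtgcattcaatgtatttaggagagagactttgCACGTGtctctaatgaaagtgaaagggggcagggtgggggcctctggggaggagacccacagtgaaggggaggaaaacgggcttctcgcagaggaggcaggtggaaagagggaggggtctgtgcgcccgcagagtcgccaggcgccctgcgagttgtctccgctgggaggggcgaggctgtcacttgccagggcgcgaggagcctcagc
LYPD1: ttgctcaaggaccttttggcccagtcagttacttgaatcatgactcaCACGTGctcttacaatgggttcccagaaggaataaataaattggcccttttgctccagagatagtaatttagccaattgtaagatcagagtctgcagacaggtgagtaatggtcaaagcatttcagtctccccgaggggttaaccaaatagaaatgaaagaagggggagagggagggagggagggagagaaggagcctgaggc
SOD3 held 1 GCGTG core on the minus strand, GPM6A and LYPD1 1 E-box each, and LCN2 no match in this window. Across 11671 tested genes with a promoter entry, 8.56% held CACGTG, 2.86% TACGTG and 43.7% GCGTG. Among 169 genes with an entry that fell by at least 0.5, the shares were 9.47%, 2.37% and 30.8%. Among 21 that rose by at least 0.5, they were 4.76%, 4.76% and 42.9%. These are descriptions of short windows and mark no site as bound.

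Rises were fewer and smaller. CADM3, a nectin-like cell adhesion molecule of neurons, had log2 values of 10.38, 10.24 and 10.27 in wild type and 11.31, 11.35 and 11.26 in B3. LYPD1, a modulator of nicotinic acetylcholine receptors, had 10.01, 10.11 and 9.999 in wild type and 10.95, 10.92 and 11.03 in B3, and RGS16, which speeds the shut-off of G-protein signals, 11.15, 11.25 and 11.28 in wild type and 12.13, 12.12 and 12.17 in B3. In these 3 the lowest B3 library stood above the highest wild-type library by more than 0.7. DMD, the dystrophin gene, rose by 0.91 ± 0.04, the secreted Wnt antagonist gene DKK1 rose by 0.84 ± 0.05 and TMEM171, a transmembrane protein gene, rose by 0.83 ± 0.05. ENC1, a kelch-repeat actin-binding protein gene of the nervous system, had 12.92, 12.86 and 12.89 in wild type and 13.70, 13.70 and 13.75 in B3. IL13RA2, a decoy receptor for interleukin 13 found on many gliomas, rose by 0.72 ± 0.04 from a low level. NRP2, a receptor of semaphorins and vascular growth factors, rose by 0.67 ± 0.03. PIK3R3, a regulatory subunit of phosphoinositide 3-kinase, rose by 0.65 ± 0.03, PAK3, a p21-activated kinase, rose by 0.64 ± 0.04 and LDB2, a partner of LIM-domain factors, rose by 0.62 ± 0.04. FBXO32, a ubiquitin ligase subunit known from muscle atrophy, rose by 0.61 ± 0.02, PHLDA2, an imprinted pleckstrin-homology gene, rose by 0.60 ± 0.03 and ACAN, the proteoglycan aggrecan, rose by 0.60 ± 0.03. AKR1C1, an aldo-keto reductase of steroids, rose by 0.73 ± 0.03 and AKR1C3 rose by 0.45 ± 0.03, whereas AKR1C2 fell by 0.83 ± 0.05. PCDHGA9 rose by 0.71 ± 0.04 while PCDHGB2 of the same protocadherin cluster fell by 1.08 ± 0.04. The 3 AKR1C genes are near-identical and the clustered protocadherins share their last exons, so the counting could have split reads between them and these values are uncertain; AKR1C2, AKR1C3 and PCDHGB2 were picked after their values were seen.

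Cell division genes were the most uniform group among the rises. The G2/M and mitosis list, genes that build the spindle and drive chromosome separation, had 43 of 46 tested members higher and 0 lower, against 23.2% and 24.6% of all tested genes, with a median change of 0.27. Its largest rise was that of CDC20, which switches on the anaphase-promoting complex, with log2 values of 13.31, 13.29 and 13.25 in wild type and 13.75, 13.74 and 13.76 in B3. HMMR, DLGAP5 and SPAG5, which work at the spindle, rose by 0.42 ± 0.03, 0.41 ± 0.03 and 0.39 ± 0.03, and the mitotic kinase gene AURKA by 0.40 ± 0.03. All called rises of the list were under 0.5. The DNA replication and G1/S list had 37 of 50 tested members higher and 3 lower, with a median of 0.13. TK1, which makes nucleotides, rose by 0.42 ± 0.02, RRM2, the ribonucleotide reductase subunit, by 0.30 ± 0.02, GINS1 of the replicative helicase by 0.31 ± 0.03 and the ligase gene LIG1 by 0.29 ± 0.03. These counts stayed at 43 and 0 for mitosis and moved from 37 and 3 to 41 and 0 for replication with equal library totals.

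Most tested histone genes were higher in B3. Of the replication-dependent histones, 22 of 27 tested members were higher and 0 lower (28 in the table), with a median of 0.17. HIST1H1C, a linker histone, had 10.79, 10.65 and 10.76 in wild type and 11.43, 11.45 and 11.57 in B3. The core histone genes HIST1H2BK, HIST1H2AC, HIST1H2BD and HIST2H2BE rose by 0.66 ± 0.03, 0.63 ± 0.04, 0.61 ± 0.04 and 0.59 ± 0.04. Most histone messages lack a poly(A) tail, the RNA was selected for one, and members are alike in sequence, so these values are uncertain. Whether the histone rises follow cell division was not tested. The list of CDK inhibitors and D-type cyclins had 5 of 14 tested members higher and 3 lower (15 in the table). CDKN1C, a brake on G1 kinases, rose by 0.33 ± 0.04 and CDKN1B, another, fell by 0.23 ± 0.03; CDKN1B lies in chromosome 12p, where most genes were lower. The p53 target and apoptosis list had 18 of 34 tested members higher and 6 lower, with a median of 0.10. TP53INP1 rose by 0.39 ± 0.04, the p53 antagonist gene MDM2 rose by 0.32 ± 0.03 and BCL2L11, a pro-apoptotic BH3-only gene, rose by 0.30 ± 0.02, whereas the BH3-only gene BID fell by 0.29 ± 0.03.

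Most cytosolic ribosomal protein genes were lower in B3. The list had 69 of 78 tested members lower and 1 higher, with a median of -0.15. RPL39 fell by 0.41 ± 0.03, RPL41 fell by 0.27 ± 0.03 and RPL3 fell by 0.25 ± 0.04. The count of lower members was 62 with equal library totals and 50 with quantile normalization. Mitochondrial ribosomal proteins had 29 of 76 tested members higher and 4 lower, with a median of 0.05, and 47 were higher with equal library totals. MRPL18 rose by 0.23 ± 0.03 and MRPS28 rose by 0.23 ± 0.03. MRPS35 and MRPL51, both on 12p, were lower, at -0.30 ± 0.03 and -0.26 ± 0.02, and of the 4 lower members 2 lay in the windows of chromosome 12 described further on. Subunits of oxidative phosphorylation had 28 of 72 tested members higher and 9 lower, with a median of 0.05. COX7B of complex IV rose by 0.26 ± 0.02 and NDUFB3 of complex I rose by 0.24 ± 0.03, whereas COX7A2, in the lower stretch of chromosome 6, fell by 0.31 ± 0.02.

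**Figure D3:**
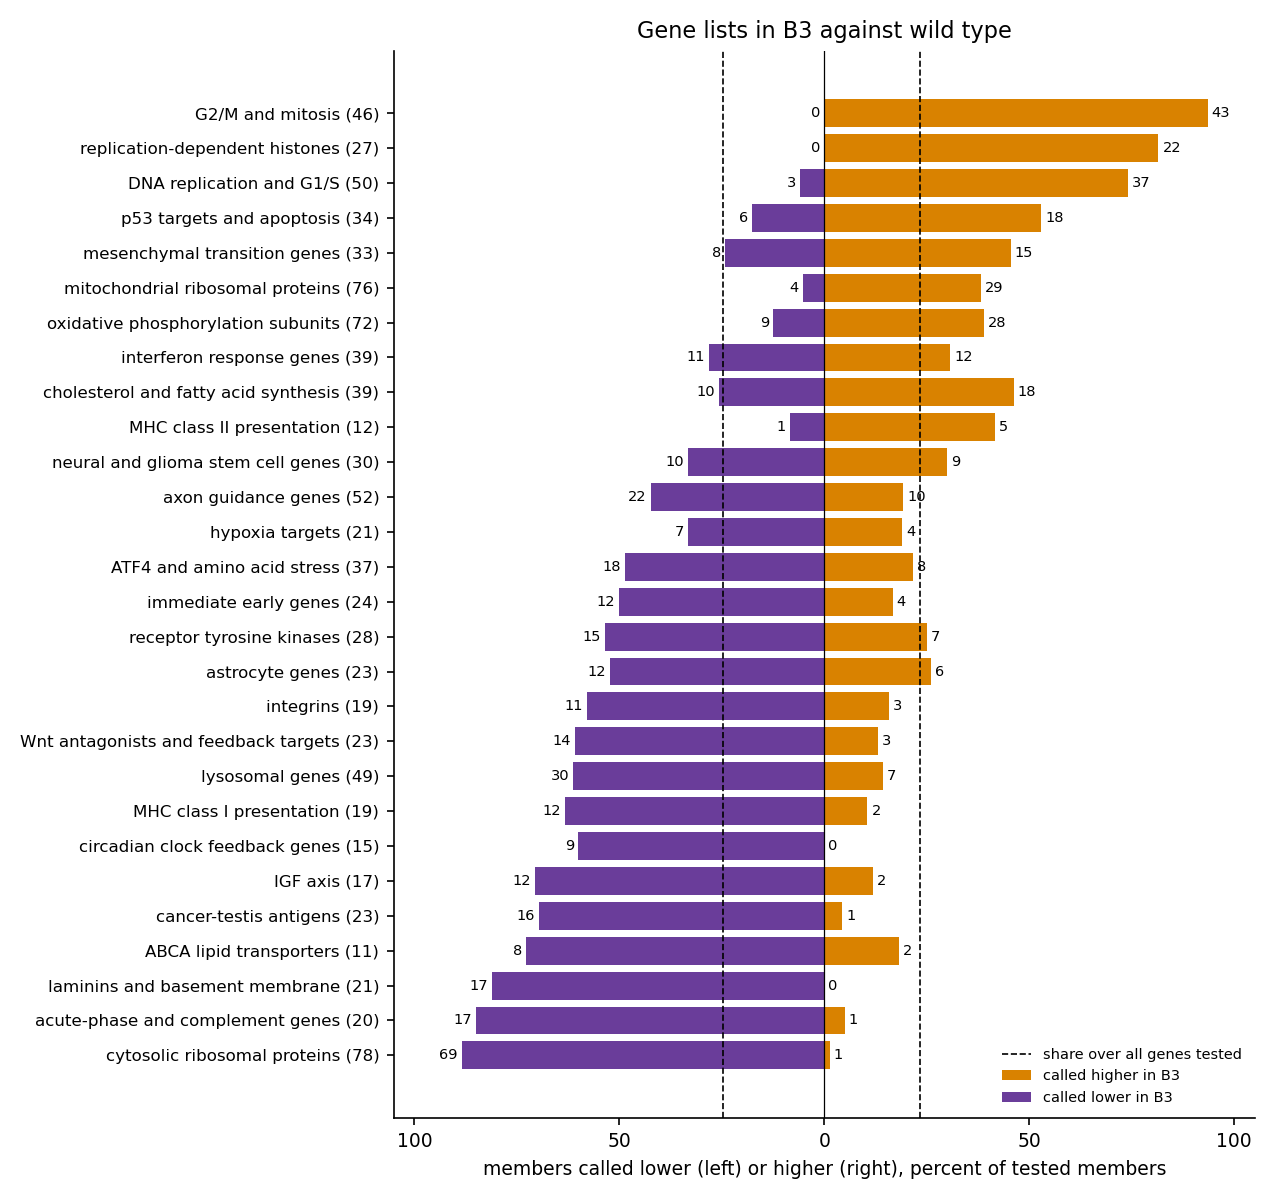
For 28 gene lists, bars give the percent of tested members called higher (right) or lower (left) in B3 against wild type, with the number of members at each bar's end and the number tested in brackets; dashed lines mark 23.2% and 24.6%, the shares over all tested genes. Mitosis genes stand furthest to the higher side, at 43 of 46, and cytosolic ribosomal proteins furthest to the lower side, at 69 of 78.

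Most complement and acute-phase genes fell. Of this list 17 of 20 tested members were lower and 1 higher (22 in the table), and 10 fell by at least 0.5, with a median of -0.49. C3, the central complement component, had log2 values of 15.84, 15.81 and 15.79 in wild type and 14.50, 14.48 and 14.54 in B3. C1S (chromosome 12, 6988259 to 7071032), a protease that starts the classical pathway, had 13.42, 13.34 and 13.33 in wild type and 11.999, 12.04 and 12.03 in B3. SERPING1, which inhibits that protease, fell by 1.12 ± 0.05 and the copper carrier gene CP fell by 0.93 ± 0.05. No B3 library reached a wild-type value in any of these 4 genes, but libraries did not overlap for 53.8% of all tested genes. C1R, C1S and C1RL form a cluster on chromosome 12p, and without the genes of shifted windows 14 of 17 members were lower. Interleukin 1 and 6 family genes had 9 of 17 tested members lower and 0 higher (22 in the table). The receptor gene IL11RA had 9.96, 9.96 and 9.87 in wild type and 8.71, 8.72 and 8.71 in B3, and the cytokine genes IL1B and IL1A were at -0.83 and -0.69. OSMR, a receptor chain for cytokines of the interleukin 6 family, fell by 0.31 ± 0.03. Chemokine ligands had 8 of 10 tested members lower and 0 higher (16 in the table): CXCL8, which draws neutrophils, fell by 0.47 ± 0.03, CXCL3 fell by 0.36 ± 0.05 and CXCL16 fell by 0.33 ± 0.03. NF-kB subunits and inhibitors had 10 of 19 tested members lower and 1 higher, by at most 0.30, with the kinase gene IKBKB at -0.30 and the inhibitor genes NFKBIZ and TNFAIP3 at -0.21 and -0.20.

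MHC class I presentation genes had 12 of 19 tested members lower and 2 higher, with a median of -0.10; with equal library totals, 7 were lower. TAPBPL, a peptide editor encoded on 12p, fell by 0.59 ± 0.03, HLA-E fell by 0.25 ± 0.02 and the loading factor gene TAPBP fell by 0.23 ± 0.03. MHC class II genes had 5 of 12 tested members higher and 1 lower. Their master regulator CIITA had 11.48, 11.36 and 11.34 in wild type and 11.92, 11.90 and 11.93 in B3, HLA-DMB rose by 0.19 ± 0.04 and HLA-DOA rose by 0.17 ± 0.02. Interferon response genes were called in both directions: 12 of 39 tested members were higher and 11 lower, with a median of 0.01. Over all tested genes the shares were 23.2% and 24.6%. ISG15 rose by 0.57 ± 0.05 and OAS2 rose by 0.39 ± 0.05, whereas XAF1, a pro-apoptotic target, fell by 0.61 ± 0.05, IFIT2 fell by 0.60 ± 0.03 and IFITM1 fell by 0.44 ± 0.04.

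Basement membrane genes were lower throughout the called set. Laminins and their partners had 17 of 21 tested members lower and 0 higher, with a median of -0.24. LAMA5 (chromosome 20, 62307955 to 62367312), an alpha chain, had log2 values of 13.22, 13.17 and 13.22 in wild type and 12.11, 12.14 and 12.03 in B3. HSPG2, the heparan sulfate proteoglycan perlecan, fell by 0.54 ± 0.04, and the laminin chain genes LAMB2, LAMB1 and LAMA4 were lower, at -0.46 ± 0.02, -0.43 ± 0.03 and -0.41 ± 0.03. Integrins, the receptors of that matrix, had 11 of 19 tested members lower and 3 higher. ITGA7, a laminin receptor chain, had 11.12, 11.09 and 11.14 in wild type and 10.24, 10.28 and 10.35 in B3, and ITGB3 fell by 0.39 ± 0.03 and ITGA5 fell by 0.37 ± 0.02. Other collagens had 11 of 24 tested members lower and 4 higher: COL12A1, in the lower stretch of chromosome 6, fell by 0.71 ± 0.03, COL22A1 fell by 0.70 ± 0.03 and COL8A2 fell by 0.47 ± 0.05, whereas the weakly expressed COL3A1 rose by 0.34 ± 0.07.

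Other matrix and adhesion lists held changes in both directions, as did all tested genes, of which 23.2% were higher and 24.6% lower. Proteoglycans and hyaluronan genes had 12 of 31 tested members lower and 9 higher (33 in the table). ACAN, named above, and HAPLN1, which links aggrecan to hyaluronan, rose, HAPLN1 by 0.48 ± 0.04, whereas CEMIP, which depolymerizes hyaluronan, fell by 0.56 ± 0.04, CSPG4, the NG2 proteoglycan, fell by 0.52 ± 0.03 and PRELP fell by 0.44 ± 0.04. Metalloproteinases and their inhibitors had 13 of 30 tested members lower and 7 higher (36 in the table), or 11 and 10 with equal library totals. TIMP1, an inhibitor, was at -0.51, ADAM9 at -0.42, ADAMTS4 at -0.36 and ADAM19 at 0.41. Plasminogen activators and serpins had 6 of 17 tested members lower and 4 higher (21 in the table), or 5 and 6 with equal totals. SERPINF1, the anti-angiogenic factor PEDF, had 11.13, 11.02 and 10.97 in wild type and 10.09, 10.13 and 10.16 in B3, SERPINB5 rose by 0.58 ± 0.05 and PLAT, tissue plasminogen activator, fell by 0.39 ± 0.03. Cadherins and protocadherins had 11 of 27 tested members higher and 8 lower (28 in the table): CDH6 rose by 0.42 ± 0.07, PCDH9 rose by 0.41 ± 0.02, PCDH1 rose by 0.39 ± 0.03 and the planar polarity gene CELSR2 fell by 0.37 ± 0.03. Neural adhesion genes had 13 of 28 tested members lower and 4 higher (30 in the table). In this list CADM2 fell by 0.71 ± 0.04, opposite to CADM3, the contactin gene CNTN1 fell by 0.69 ± 0.03, and FLRT3 rose by 0.47 ± 0.02 while FLRT2 fell by 0.44 ± 0.05. Axon guidance genes had 22 of 52 tested members lower and 10 higher (53 in the table): the repellent ligand gene SLIT3 fell by 0.90 ± 0.05, the semaphorin gene SEMA3D fell by 0.59 ± 0.04, EFNB3 fell by 0.51 ± 0.03 and the netrin receptor gene UNC5B fell by 0.48 ± 0.05, whereas the semaphorin receptor NRP2 was among the largest rises. Ion channel genes had 19 of 43 tested members lower and 7 higher (50 in the table), or 15 and 11 with equal library totals. Their changes were all under 0.5 in size. The potassium channel genes KCNK5, KCNQ5 and KCNK1 were at -0.46, -0.40 and -0.37 and the chloride channel gene ANO1 at 0.41.

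Growth factor signalling genes were more often lower than higher. Receptor tyrosine kinases had 15 of 28 tested members lower and 7 higher (32 in the table). FGFR1 had log2 values of 14.96, 14.84 and 14.87 in wild type and 14.33, 14.33 and 14.37 in B3, EGFR, which lies on chromosome 7, 12.30, 12.26 and 12.24 in wild type and 11.68, 11.81 and 11.73 in B3. In both receptors the groups were apart. Genes named without a chromosome, here as elsewhere, may also lie in the lower stretches described further on. MET, the receptor of hepatocyte growth factor, fell by 0.37 ± 0.02, the insulin receptor gene INSR fell by 0.34 ± 0.04, and ALK, at a low level, rose by 0.46 ± 0.05. Ligands had 13 of 29 tested members lower and 5 higher (34 in the table): PDGFA, a platelet-derived growth factor encoded on chromosome 7, fell by 0.59 ± 0.02, HBEGF fell by 0.44 ± 0.04, VEGFC fell by 0.32 ± 0.05, and FGF7 rose by 0.38 ± 0.06. The insulin-like growth factor axis had 12 of 17 tested members lower and 2 higher (19 in the table), with a median of -0.18. Its secreted binding proteins led: after IGFBP3, IGFBP2 had 12.73, 12.68 and 12.68 in wild type and 11.72, 11.71 and 11.80 in B3 and IGFBP7 fell by 0.74 ± 0.03, and the RNA-binding protein gene IGF2BP3 fell by 0.62 ± 0.04.

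Downstream of the receptors, immediate early genes had 12 of 24 tested members lower and 4 higher. EGR1, a zinc-finger factor induced within minutes of stimulation, had 16.25, 16.31 and 16.32 in wild type and 15.46, 15.47 and 15.37 in B3, NR4A1 fell by 0.55 ± 0.02, EGR3 fell by 0.40 ± 0.03, FOS fell by 0.39 ± 0.03 and ARC fell by 0.39 ± 0.04. ERK feedback genes had 11 of 23 tested members lower and 4 higher, or 9 and 7 with equal library totals. LIF was at -0.53, SPRY4 at -0.27, DUSP10 at 0.40 and SPRY1 at 0.33. Regulators of G-protein signalling had 5 of 14 tested members lower and 3 higher (16 in the table). RGS5 had 11.47, 11.69 and 11.53 in wild type and 10.35, 10.32 and 10.37 in B3, opposite to the rise of RGS16, and RGS10 fell by 0.49 ± 0.04. Wnt antagonists and feedback targets had 14 of 23 tested members lower and 3 higher (25 in the table), with a median of -0.13: KREMEN2, NKD1, LGR5 and NKD2 were at -0.46, -0.43, -0.40 and -0.36, and DKK1, named above, rose. Notch genes had 10 of 23 tested members lower and 2 higher (24 in the table): the ligand gene JAG1 fell by 0.52 ± 0.03, DTX1 fell by 0.55 ± 0.06, DLL3 fell by 0.39 ± 0.04 and the target HEY1 rose by 0.45 ± 0.04. TGF-beta and BMP genes had 18 of 41 tested members lower and 8 higher (44 in the table), with TGFBI, INHBE and BMP1 at -0.55, -0.49 and -0.47. YAP and TAZ targets had 10 of 25 tested members higher and 8 lower: MYOF rose by 0.46 ± 0.02, WWTR1, which encodes TAZ itself, fell by 0.45 ± 0.03 and its DNA-binding partner TEAD4, on 12p, fell by 0.37 ± 0.03.

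Among metabolic and organelle genes, the lysosome stood on the lower side. Lysosomal genes had 30 of 49 tested members lower and 7 higher, with a median of -0.12. The cysteine protease gene CTSK had log2 values of 11.94, 11.88 and 11.81 in wild type and 10.67, 10.66 and 10.84 in B3, GAA, the acid glucosidase, fell by 0.51 ± 0.03, GUSB, on chromosome 7, fell by 0.49 ± 0.03, CTSO fell by 0.47 ± 0.03 and TFEB, a factor that drives lysosome genes, fell by 0.48 ± 0.04. Of the ABCA lipid transporters 8 of 11 tested members were lower and 2 higher (12 in the table). ABCA6, near ABCA8 on chromosome 17 (69078702 to 69141888), had 12.58, 12.59 and 12.56 in wild type and 11.17, 11.14 and 11.16 in B3. ABCA5, in the same cluster, fell by 0.43 ± 0.03, and ABCA2 and ABCA13, on other chromosomes, were at -0.41 and -0.34. Antioxidant enzymes other than SOD3 and MGST1 moved less; the whole list had 13 of 36 tested members higher and 11 lower (37 in the table), with SOD2, the mitochondrial dismutase, at -0.40, GSTM2 at 0.35 and GSTM3 at -0.33. Members of the GSTM family are alike in sequence, so their values are uncertain.

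Energy and stress pathways showed no common direction, beside 23.2% higher and 24.6% lower over all tested genes. Hypoxia targets had 7 of 21 tested members lower and 4 higher, and their median of -0.02 turned to 0.02 with equal library totals. NDRG1, a stress-response gene, had log2 values of 16.34, 16.38 and 16.37 in wild type and 15.46, 15.44 and 15.42 in B3, P4HA2 fell by 0.25 ± 0.03 and STC1 rose by 0.19 ± 0.04. Glycolysis genes had 9 of 24 tested members higher and 10 lower. Of the 10 lower ones 5 lie outside the shifted windows; SLC2A3, a glucose transporter, GAPDH and LDHB, all on 12p, changed by -0.50 ± 0.03, -0.29 ± 0.04 and -0.27 ± 0.03. ALDOC fell by 0.47 ± 0.03 and PFKFB4 rose by 0.29 ± 0.04. Cholesterol and fatty acid genes had 18 of 39 tested members higher and 10 lower (40 in the table): the desaturase gene FADS2 rose by 0.46 ± 0.03 and its neighbour FADS3 fell by 0.48 ± 0.04. In the ATF4 and amino acid stress list 18 of 37 tested members were lower and 8 higher with the deposited scaling, and 11 and 11 with equal library totals. DDIT3, which encodes the stress factor CHOP, fell by 0.70 ± 0.04 and TRIB3 fell by 0.35 ± 0.03, whereas SLC7A5, an amino acid transporter, rose by 0.23 ± 0.03. Endoplasmic reticulum chaperones had 11 of 27 tested members lower and 8 higher, with ERN1, the stress sensor IRE1, at -0.31 and MANF at 0.22, and 5 lower and 10 higher with equal totals.

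The bHLH-PAS list holds possible partners of ARNT2 and ARNT2 itself. Of its 16 tested members 8 were lower and 3 higher (17 in the table), or 8 and 6 with equal library totals. ARNT2 alone passed 0.5. ARNT was at 0.06 ± 0.02, adjusted p = 0.054; HIF1A rose by 0.08 ± 0.02, EPAS1, which encodes HIF-2 alpha, fell by 0.24 ± 0.03, AHR fell by 0.16 ± 0.02, NPAS1 fell by 0.32 ± 0.06 and ARNTL2, on 12p, fell by 0.31 ± 0.04. ARNT was called with a filter of 50, a pseudocount of 16, libraries at the same total or median, and without B3 replicate 3 (adjusted p from 0.00326 to 0.0488). HIF1A lost its call without wild-type replicate 3. Clock feedback genes, several of which are bHLH or PAS proteins, had 9 of 15 tested members lower and 0 higher, with a median of -0.11: BHLHE41, on 12p, fell by 0.51 ± 0.04, PER1 fell by 0.33 ± 0.03 and PER3 fell by 0.20 ± 0.03. Aryl hydrocarbon receptor targets had 4 of 7 tested members lower and 1 higher (8 in the table): SERPINB2 fell by 0.46 ± 0.05, TIPARP fell by 0.39 ± 0.03, CYP1A1 fell by 0.22 ± 0.06 and NQO1 rose by 0.17 ± 0.03.

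Lineage genes were mixed, and of all tested genes 23.2% were higher and 24.6% lower. Among the neural and glioma stem cell genes 9 of 30 tested members were higher and 10 lower, or 12 and 8 with equal totals. POU3F2, a neural POU factor, had 11.88, 11.82 and 11.82 in wild type and 12.36, 12.40 and 12.37 in B3, SOX4 rose by 0.28 ± 0.03 and SOX2 rose by 0.25 ± 0.03, whereas the RNA-binding protein gene MSI1 fell by 0.49 ± 0.04, the radial glia gene FABP7 fell by 0.40 ± 0.03 and LGR5 fell by 0.40 ± 0.05. NES was at 0.02 ± 0.03, adjusted p = 0.613, OLIG2 at 0.07 ± 0.03, adjusted p = 0.0651 and CD44 at 0.04 ± 0.03, adjusted p = 0.222. NES was called without wild-type replicate 1 (adjusted p = 0.0359), OLIG2 without B3 replicate 3 and under the 3 other scalings, and CD44 under quantile normalization and equal totals. Astrocyte genes had 12 of 23 tested members lower and 6 higher (24 in the table): ALDOC, CLU and the glutamate transporter gene SLC1A3 were at -0.47, -0.42 and -0.30, against 0.25 for GFAP and 0.20 for S100B. Neuron genes had 9 of 21 tested members lower and 4 higher (30 in the table): the surface glycoprotein gene THY1 fell by 0.95 ± 0.04, UCHL1 fell by 0.37 ± 0.03 and the tau gene MAPT fell by 0.34 ± 0.03, TUBB3 rose by 0.28 ± 0.03, and MAP2 was at 0.04 ± 0.02, adjusted p = 0.186. Oligodendrocyte lineage genes had 9 of 18 tested members lower and 4 higher (19 in the table), with OLIG1 at 0.46, SOX8 at -0.44, ENPP2 at -0.42 and MAG at -0.36. Mesenchymal transition genes had 15 of 33 tested members higher and 8 lower: the annexins ANXA1 and ANXA2 rose by 0.46 ± 0.02 and 0.36 ± 0.03, and TGFBI fell by 0.55 ± 0.03. HOX genes, which specify position along the body axis, had 9 of 36 tested members lower and 7 higher (37 in the table). These counts are near the shares over all tested genes. HOXC13 was at -0.43, HOXA11 at -0.38 and HOXB8 at 0.33.

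Cancer-testis antigens, most of them X-linked, had 16 of 23 tested members lower and 1 higher (24 in the table), and 9 fell by at least 0.5. PAGE2 had log2 values of 9.99, 10.07 and 9.98 in wild type and 7.77, 7.74 and 7.71 in B3, GAGE1 fell by 1.27 ± 0.04, PAGE5 fell by 1.24 ± 0.05 and MAGEC2 fell by 0.86 ± 0.05. Several PAGE, GAGE, MAGE and CTAG genes have near-identical copies, so the reads of a copy could have been given to another. The X chromosome as a whole had a median change of 0.00, with 130 genes lower and 148 higher of 558.

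Markers of other cell types were also counted, although all libraries are labelled as LN229 cells and no other cell type is named. A marker level here is therefore RNA of this line and no count of pericytes or other cells. A bulk level cannot tell fewer expressing cells from less RNA per cell. Over all tested genes 23.2% were higher and 24.6% lower. Endothelial markers had 3 of 8 tested members lower and 2 higher (11 in the table); TEK, ERG and PLVAP fell under the filter. Immune markers had 1 of 8 tested members higher and 0 lower (13 in the table), CD68 alone, and PTPRC, the common leukocyte marker, was under the filter. Pericyte markers had 6 of 7 tested members lower and 0 higher (9 in the table), with RGS5 and CSPG4 lowest; ABCC9 and HIGD1B fell under the filter. Summed antilogs of the pericyte list were 238300 to 246100 in wild type and 175700 to 179700 in B3, and CSPG4 and MCAM had the highest antilogs of it. The same sums were 875 to 939 and 768 to 787 for endothelial markers, and 2408 to 2509 and 2694 to 2785 for immune markers. Epithelial markers had 3 of 13 tested members lower and 0 higher (15 in the table), with the keratin gene KRT8 at -0.64, and fibroblast markers 4 of 10 tested members lower and 3 higher, with THY1 at -0.95. The part of such markers in the gene groups above was not tested.

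Losses in B3 were also uneven along the genome. Positions were found for 15253 of the tested genes, 92.7%. In 287 windows of 10 Mb with at least 15 tested genes, 5 had a median change of -0.2 or lower and 0 of 0.2 or higher, and the other medians lay between -0.20 and 0.09. On chromosome 6, 24 of 28 genes between 70 and 80 Mb were lower, with a median of -0.33, and 30 of 37 between 80 and 90 Mb, with a median of -0.45. No gene of these 2 windows was called higher. EEF1A1, the translation elongation factor, fell by 0.50 ± 0.06, the membrane protein gene TMEM30A fell by 0.41 ± 0.03, SYNCRIP, an RNA-binding protein gene, fell by 0.42 ± 0.02, SNX14 fell by 0.59 ± 0.03 and IBTK fell by 0.46 ± 0.03. EEF1A1 has many pseudogene copies, so its value is uncertain. On chromosome 12, 75 of 98 genes between 0 and 10 Mb and 33 of 39 between 20 and 30 Mb were lower, with medians of -0.21 and -0.27. The window between them had 31 of 45 lower and a median of -0.17. Genes of high level there were GAPDH, given above, CHD4, a chromatin remodeller, at -0.24, TPI1 at -0.14, PHB2, a mitochondrial prohibitin, at -0.42, A2M, a protease inhibitor, at -1.20 and the leucine-metabolizing enzyme gene BCAT1 at -0.36. The first 10 Mb of chromosome 8 had 16 of 19 genes lower and a median of -0.26, with AGPAT5 at -0.40 and MCPH1 at -0.26. The next 4 windows of that chromosome arm, up to 50 Mb, had medians from -0.11 to -0.19.

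Chromosomes 12 and 7 as wholes also leaned to the lower side, and some parts of them more than others. Windows of chromosome 12 had medians of -0.27 to -0.11 up to 70 Mb and -0.04 to 0.03 beyond. Those of chromosome 7 had -0.195 to -0.10 up to 60 Mb and -0.11 to -0.01 beyond. In C4 the chromosome 7 windows had medians of -0.03 to 0.03 up to 60 Mb and -0.09 to -0.01 beyond. The lower medians beyond 60 Mb were thus shared with C4, whose changes rest on the same wild-type libraries. Of 805 genes on chromosome 12, 403 were lower and 104 higher, with a median of -0.08, and of 737 on chromosome 7, 349 were lower and 54 higher, with a median of -0.07. The 5 shifted windows held 221 genes, of which 178 were lower, and without them 7698 genes were called. In the direct comparison of the knockout lines, 74 of 98 genes of the first chromosome 12 window and 31 of 37 of the second chromosome 6 window were lower in B3 than in C4, whose medians against wild type were 0.03 and 0.00 there. The chromosome is given above for only some of the named genes, so other named genes may also lie in these stretches. No DNA was measured, and whether copy number differed was not tested.

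**Figure D4:**
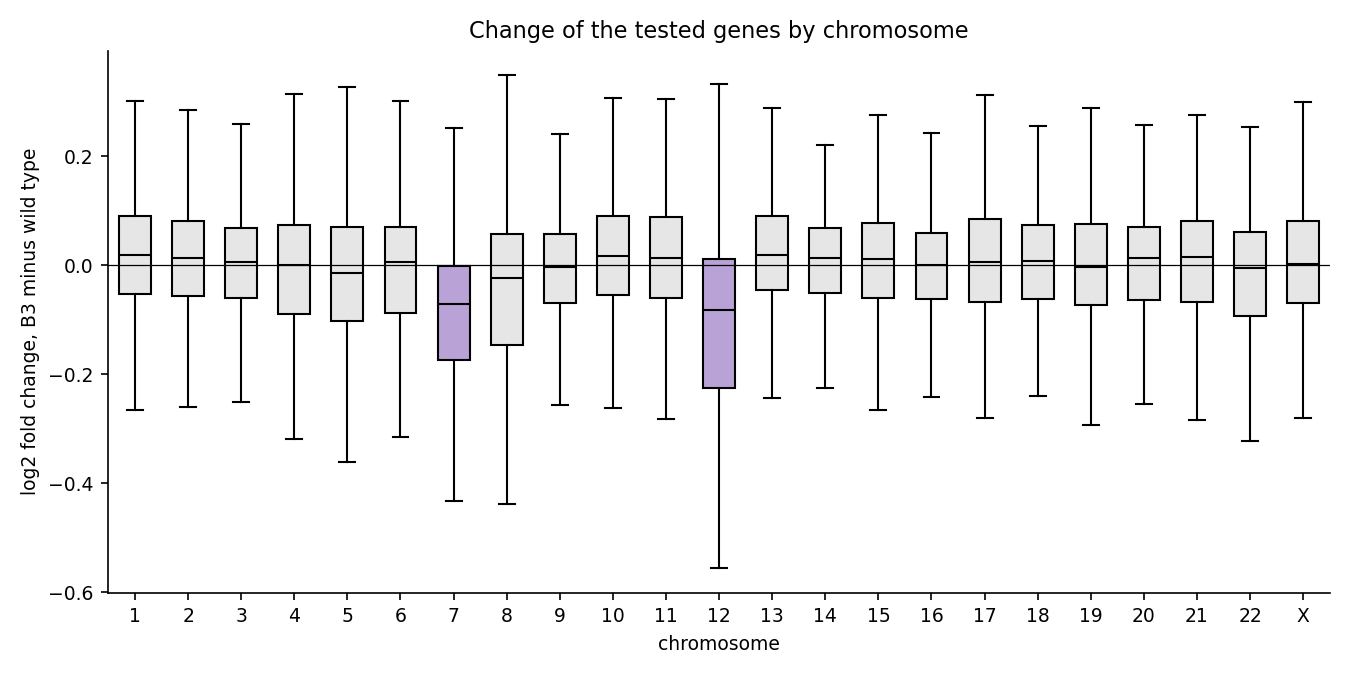
Log2 change of the tested genes in B3 against wild type by chromosome; boxes give the quartiles, lines the medians and whiskers the values within 1.5 box lengths, with outliers left out. The boxes of chromosomes 7 and 12 (purple) lie mostly under 0, with medians of -0.07 and -0.08.

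Some B3 changes differed in size from those of the other knockout line and some did not pass that test. Changes of B3 and C4 against wild type rest on the same 3 wild-type libraries, so they are given side by side, and the test is the direct contrast of B3 with C4. In that contrast 9284 genes were called, 56.4% of those tested: 4579 were higher in B3 (27.8%) and 4705 lower (28.6%). By at least 0.5, 253 were higher in B3 and 332 lower. ABCA8 had -3.11 ± 0.06 in C4 beside -3.13 ± 0.06 in B3, and the difference between the lines, -0.02 ± 0.06, was not called (adjusted p = 0.764). The same held for ABCA6 (-0.02 ± 0.03, adjusted p = 0.645), C3 (-0.04 ± 0.03, adjusted p = 0.28) and RGS16 (0.02 ± 0.04, adjusted p = 0.649). LCN2 had fallen further in C4, at -3.02 ± 0.06, a called difference of 0.90 ± 0.06. ARNT2 was slightly lower in B3 than in C4, by a difference of -0.25 ± 0.03 (adjusted p = 4.42e-07).

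Several of the deepest B3 losses were deeper than in C4. SOD3 was at -0.42 ± 0.03 in C4, a difference of -2.56 ± 0.03 between the lines, CTAG2 at -0.33 ± 0.03 with -2.40 ± 0.03, and MAGEA10 at -0.18 ± 0.03 with -2.23 ± 0.03. CPXM2 and MGST1 had gone the other way in C4, at 0.30 ± 0.03 and 0.30 ± 0.04, and differed by -2.16 ± 0.03 and -2.11 ± 0.04. CGREF1, a secreted calcium-binding protein gene, had -1.26 ± 0.05 in B3 and differed by -1.70 ± 0.05. CHL1, an L1-family adhesion gene, had -0.20 ± 0.03 in B3 beside 1.70 ± 0.03 in C4. In the other direction HAPLN1 was at -1.93 ± 0.04 in C4, a difference of 2.40 ± 0.04, and TMPRSS15, the enteropeptidase gene, was 2.58 ± 0.03 higher in B3. CHAC1, a stress-induced glutathione-degrading enzyme gene, and STC2, a secreted glycoprotein gene, were 2.24 ± 0.03 and 1.90 ± 0.03 higher in B3 than in C4; against wild type they were at -0.01 ± 0.03, adjusted p = 0.798 and 0.05 ± 0.03, adjusted p = 0.199. VEGFA had -0.26 ± 0.03 in B3 beside -1.63 ± 0.03 in C4.

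**Figure D5:**
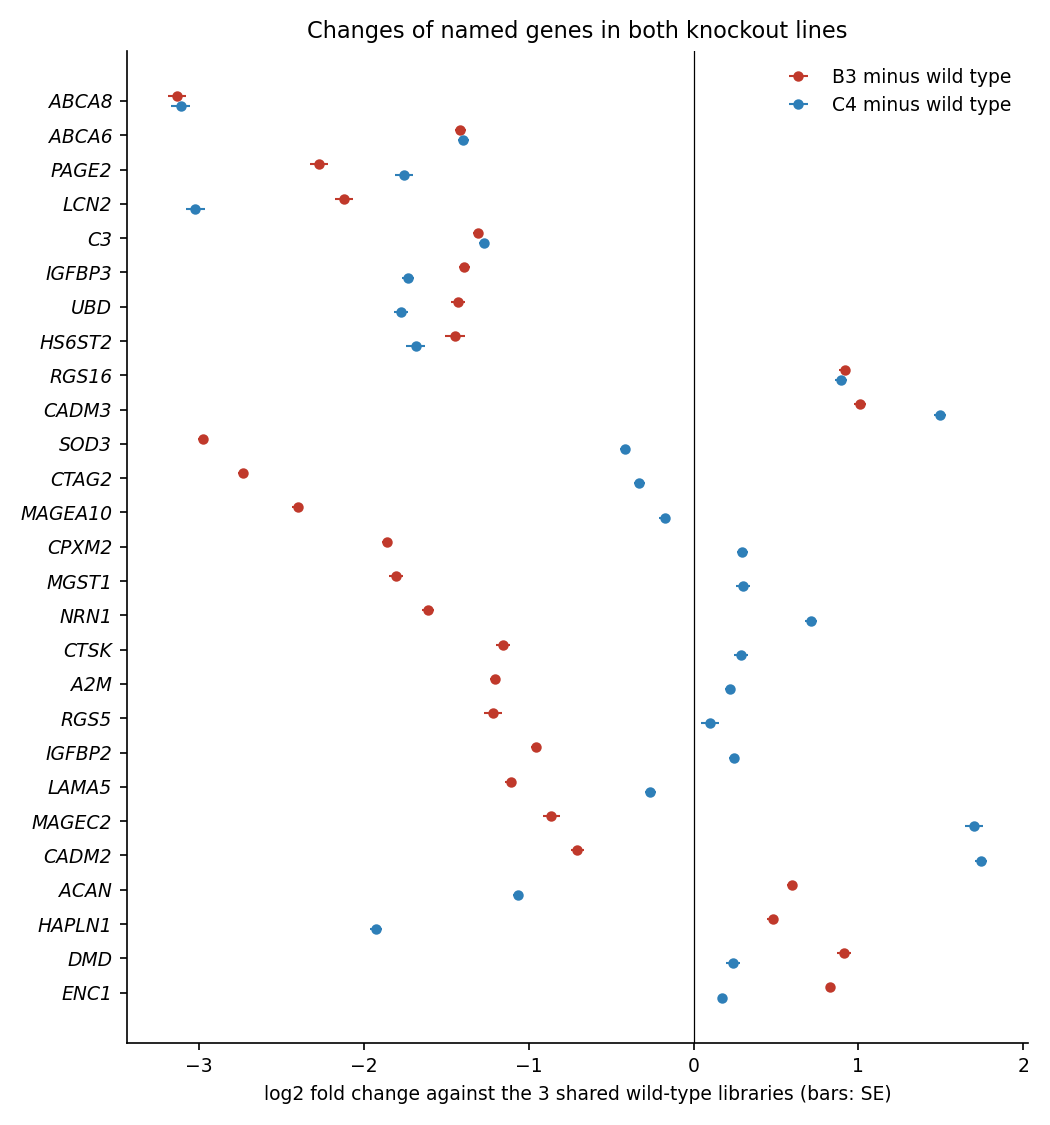
Log2 fold changes against the 3 shared wild-type libraries, with bars for the SE, for 27 genes in B3 (red) and C4 (blue). The points of ABCA8, ABCA6, C3 and RGS16 nearly coincide, those of SOD3, CTAG2 and MAGEA10 lie more than 2 apart, and MAGEC2, CADM2 and ACAN fall on opposite sides of 0.

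Gene lists differed between the lines as well. Of the mitosis genes, 40 of 46 were higher in B3 than in C4 and 5 lower, and of the replication genes 38 of 50 were higher and 0 lower, against 27.8% and 28.6% of all tested genes. Mitochondrial ribosomal proteins were higher in B3 for 51 of 76 members, and amino acid stress genes for 36 of 37. Lysosomal genes were lower in B3 for 39 of 49 members and higher for 0. MHC class I genes were lower for 16 of 19, class II genes for 12 of 12 and interferon response genes for 35 of 39. Against wild type, the class II and interferon lists had medians of 0.53 and 0.35 in C4 beside 0.02 and 0.01 in B3. Amino acid stress genes had -0.69 in C4 beside -0.05 in B3. Lysosomal and class I genes had 0.145 and 0.19 in C4 beside -0.12 and -0.10 in B3. Laminins and basement membrane genes were lower in B3 for 15 of 21 members. Cytosolic ribosomal proteins were higher in B3 than in C4 for 48 of 78 members. Against wild type, 69 of them were lower in B3 and 75 in C4, with 1 higher in each line and medians of -0.15 and -0.25. Cancer-testis antigens were lower than wild type for 16 of 23 members in each line, with 1 higher in B3 and 4 in C4. The B3 minus C4 difference was -1.44 ± 0.04 for CTSK, 0.37 ± 0.03 for CDC20 and -0.85 ± 0.03 for LAMA5.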

How the data were processed

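Polyadenylated RNA was sequenced in 3 wild-type, 3 B3 and 3 C4 libraries of LN229 cells. Per the submitters' processing notes, the authors used STAR 2.7.3a, Subread 1.6.3 and DESeq2 with build hg38; the roles, the annotation and the transform are not given in the sources used here. The deposited table holds log2 values, with no pseudocount known, and reads could not be recovered, so depth is unknown and no count test was run. Genes averaging 10 or more as antilogs were fitted with limma 3.58.1 (R 4.3.3) on the values as deposited, all 9 libraries in 1 fit with a coefficient per group and an intensity trend, two-sided, with Benjamini-Hochberg adjustment over all 16457 genes. The script was tested on simulated data. Of the gene names, 25 are dates written by spreadsheet software and were kept.

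The members, 58 gene lists and tests were chosen with earlier results of these data known. Named genes are the 20 largest called changes in each direction whose average antilog reached 50 and whose libraries stood apart (pseudogenes, clone-based and similar names passed over), up to 5 called members per list, a fixed set, high-level genes of shifted windows and the largest B3 and C4 differences; further ones are said to be picked afterwards. Some genes that the rule names are not reported here. Lists were described by counts and medians. Positions are from GENCODE 29 on GRCh38, promoters from RefSeq. Replicate numbers did not pair the libraries.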

Additional observations from a re-analysis of the deposited data

Results flagged for a closer look

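The changes of B3 and C4 against wild type differed for 9284 genes in the direct limma contrast of the 2 lines, and 1412 genes were called in both lines with opposite signs. In 10 of these each line had moved by at least 0.5 on the log2 scale; they were picked after their values were seen. MAGEC2, a cancer-testis antigen, had -0.86 ± 0.05 in B3 and 1.70 ± 0.05 in C4, a difference of -2.57 ± 0.05, and MAGEC1 beside it differed by -1.29 ± 0.05. CADM2, an adhesion molecule of neurons, differed by -2.45 ± 0.04 and NRN1, the neuritin gene, by -2.32 ± 0.04. PLEKHB1, a pleckstrin-homology gene, differed by -1.51 ± 0.02, LRP2, the endocytic receptor megalin, by -1.30 ± 0.04, MATN2, a matrilin of the matrix, by -1.26 ± 0.03 and CES3, a carboxylesterase, by -1.17 ± 0.04. Higher in B3 were ACAN, by 1.66 ± 0.03, and CYB5R2, a cytochrome b5 reductase, by 1.45 ± 0.03.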

How the results depend on the processing

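The count of genes called in B3 against wild type ranged from 6944 to 8016 when 1 library at a time was left out and from 7504 (replicate block) to 8534 (libraries at the same total) under the other alternatives, against 7876. Falls of at least 0.5 numbered 208 to 249 and rises 36 to 47 over all alternatives. ARNT2 kept its call in each, at -1.65 to -1.70. The count of shifted windows was 4 to 6. The replicate block gave 7504 calls, and same-numbered libraries correlated between -0.23 and 0.02 in their deviations from group means, so the numbers do not pair the libraries. Of 340 named genes that were called, 9 lost the call under at least 1 alternative, among them HLA-DQA1, ESAM and ASNS; EEF1A1 ranks highest in every library, so quantile normalization sets its change to 0. CHAC1, not called, turned positive with equal library medians (8.827e-05) or totals (0.02173), and ranged from -0.04316 to 0.01141 when 1 library at a time was left out. NES, not called, ranged from -0.01294 to 0.06122 in the same way, negative without wild-type replicate 2; the cause was not tested. edgeR and DESeq2 fits were not run, since reads could not be recovered.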
